A study of Mus musculus with 2 samples.

Results

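Pi16-positive fibroblasts made up 303 of the 19622 cells kept from 2 single-cell libraries of UV-positive mouse lung cells, 228 of 9634 in library 1 and 75 of 9988 in library 2. Members were chosen by their *Pi16*, *Dcn* and lineage gene counts. A UMI (unique molecular identifier) marks 1 captured RNA molecule, and cells were kept from 200 genes upwards if no more than 10% of UMIs were mitochondrial. A member had at least 1 UMI of *Pi16*, at least 2 UMIs of *Dcn* and none of *Cdh5*, *Pecam1*, *Epcam* or *Ptprc*, which mark endothelial, epithelial and immune cells. The lungs were from male C57BL/6 mice of wild type genotype and 3 months of age, and their cells were freed with enzymes and sorted live, as single cells, for the blue-green light that stored retinoids give off under UV. All cells belonged to 1 condition, and the libraries were made on separate occasions. How many mice each library held is not given in the sources used here, so the spread between libraries may be technical.

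Fibroblasts of the adventitia, the connective tissue cuff around arteries, veins and large airways, carry the peptidase inhibitor Pi16 in many organs and are held to be a reservoir of stromal cells. They build a loose collar of collagen and elastic fibres, receive hedgehog signals, and differ from the alveolar lipofibroblasts, which lie in the alveolar walls and store retinyl esters and neutral lipid. Position in the tissue was not measured here, so the members are named for *Pi16* alone.

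The members were set beside 2 other groups of fibroblasts of the same libraries. Dcn-high Pi16-negative fibroblasts held at least 5 *Dcn* UMIs, none of *Pi16* and none of the 4 lineage genes, and numbered 633 and 695 cells in libraries 1 and 2. Alveolar-gate fibroblasts held at least 3 UMIs of *Tcf21*, *Npnt* and *Itga8* together, none of *Dcn*, *Pi16* and *Mfap5* and none of the lineage genes, and numbered 2273 and 1245. All genes used to choose a group are described without a test. Levels are in CPM, which scales the summed cells of a group in a library to 1000000 UMIs over all genes. Cells are not replicates, so tests compared the 2 libraries' sums, with 6 sums in 1 fit (edgeR quasi-likelihood test with the library as a block, Benjamini-Hochberg adjusted). The adjustment ran over the 12047 genes tested and those gate genes that passed the filter on low counts.

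*Pi16*, *Adh7* and *Serpinf1* are among the genes listed as markers of these cells, and the bases before 1 annotated transcript start of each are shown. *Pi16* lies at chr17:29317680-29330593 on the plus strand, *Adh7* at chr3:138217760-138233382 on the plus strand and *Serpinf1* at chr11:75409769-75422701 on the minus strand (GENCODE, GRCm38). The sequences are the 250 bases before each RefSeq transcript start (GRCm38.p6), written 5′ to 3′ in the direction of transcription. The RefSeq and GENCODE starts differ, so the *Pi16* window lies wholly inside the GENCODE gene and the *Adh7* and *Serpinf1* windows overlap the first bases of theirs. Capitals mark CCAAT or its reverse complement ATTGG, the CCAAT box of vertebrate promoters, which was searched on both strands with overlaps allowed.
*Pi16*, chr17:29318632-29318881, plus strand: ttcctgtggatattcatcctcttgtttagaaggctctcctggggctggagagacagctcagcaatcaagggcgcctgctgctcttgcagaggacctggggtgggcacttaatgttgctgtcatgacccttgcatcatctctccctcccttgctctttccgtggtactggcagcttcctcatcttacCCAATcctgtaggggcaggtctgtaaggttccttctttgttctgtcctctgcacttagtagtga
*Adh7*, chr3:138217523-138217772, plus strand: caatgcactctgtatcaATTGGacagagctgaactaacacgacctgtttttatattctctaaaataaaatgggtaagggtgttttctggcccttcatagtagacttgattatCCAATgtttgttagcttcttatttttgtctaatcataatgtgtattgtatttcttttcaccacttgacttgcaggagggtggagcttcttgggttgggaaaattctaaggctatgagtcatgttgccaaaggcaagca
*Serpinf1*, chr11:75422624-75422873, minus strand: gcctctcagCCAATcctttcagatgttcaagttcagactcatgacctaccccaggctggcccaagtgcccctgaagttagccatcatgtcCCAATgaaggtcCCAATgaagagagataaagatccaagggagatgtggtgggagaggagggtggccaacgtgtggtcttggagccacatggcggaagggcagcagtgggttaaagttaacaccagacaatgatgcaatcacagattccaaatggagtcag
The motif stood in all 3 windows, with 1 match for *Pi16*, 2 for *Adh7* and 3 for *Serpinf1*. It was also found in 33.8% of the 32851 windows of this length in the table, 11120 in number, so a match is a description of the letters and not of a bound site.

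The share of members differed between the libraries. Members were 2.37% of kept cells in library 1 (exact 95% interval 2.07 to 2.69) and 0.751% in library 2 (0.591 to 0.940), a mean of 1.56% ± 1.14 (SD, n = 2). With each cell thinned to 2000 UMIs before the rule was applied, the shares were 1.84% and 0.337%. The sort and the tissue digest act before these shares, and with 1 library per occasion the occasion and the library cannot be told apart. The matrices held 9669 and 10050 barcodes with 48762735 and 93970185 UMIs over 32285 genes. The libraries shared 23 barcodes, of which 0 belonged to a member. They stood apart in depth and in clock, glucocorticoid and stress transcripts, so each level below is given for both.

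The genes of the gate are given first, as a description. *Pi16* stood at 904 CPM in library 1 and 525 in library 2, and was at 0 in both comparison groups by their definition. *Dcn*, which encodes the collagen-binding proteoglycan decorin, stood at 4776 and 3979 CPM in the members and at 2833 and 2118 in the Dcn-high group. *Mfap5*, a microfibril glycoprotein, was at 857 and 895 CPM in the members and 901 and 817 in the Dcn-high group, so it did not set these groups apart. Beyond the rule, *Serpinf1*, the secreted serpin known as PEDF, was at 561 and 190 CPM in the members, 74.2 and 40.6 in the Dcn-high group, and 0.80 and 1.15 in the alveolar gate. *Adh7*, a class IV alcohol dehydrogenase that oxidizes retinol, was at 333 and 135 CPM, 74.7 and 17.0, and 0.267 and 0.143 in the same order. Both were listed as markers with earlier results of these data known, so their tests below are not independent evidence.

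**Figure D1:**
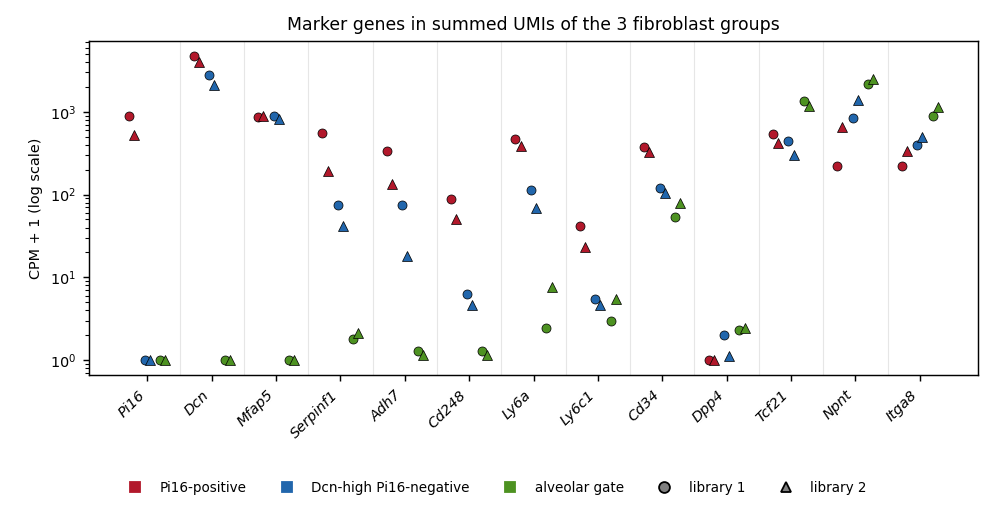
Marker genes in the 3 fibroblast groups. The vertical axis is CPM + 1 on a log scale, colour gives the group, and circles and triangles are libraries 1 and 2, each a sum over the cells of the group. *Pi16* is at 0 outside the members by the gate, and *Npnt* is lowest in the members. *Serpinf1*, *Adh7*, *Cd248*, *Ly6a*, *Ly6c1* and *Cd34* are higher in the members in both libraries. *Dpp4* is at 0 in the members and near 0 in both other groups.

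Single cells showed the same order with the dropout of sparse counts. *Serpinf1* had a UMI in 181 of 228 members (79.4%, exact 95% interval 73.5 to 84.4) in library 1 and in 52 of 75 (69.3%, 57.6 to 79.5) in library 2. In the Dcn-high group these shares were 26.4% and 28.6%, in endothelial cells 1.71% and 1.61%, in immune cells 7.45% and 9.55% and in epithelial cells 13.7% and 9.65%. *Adh7* had a UMI in 67.5% and 45.3% of members, in 17.7% and 7.63% of Dcn-high cells and in 0 of 117 and 0.564% of endothelial cells. Median depth was 6351.5 and 11166 UMIs in the members, 6059 and 10722 in the Dcn-high group, and 4589 and 12395 in endothelial cells. After thinning each cell to 2000 UMIs the shares of members fell to 54.0% and 26.7% for *Serpinf1* and to 43.3% and 25.3% for *Adh7*, against 9.62% and 7.91%, and 9.13% and 2.01%, in the Dcn-high group. Intervals cover counting error only. *Pi16* itself had a UMI in none of 371 and 114 epithelial cells and in 0 of 117 and 5 of 1241 endothelial cells, but in 11 of 94 (11.7%) and 13 of 220 (5.91%) immune cells, which the rule leaves out through *Ptprc*.

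The alveolar genes of the gates were lower in the members than in the alveolar gate but not absent. *Npnt*, which encodes the matrix protein nephronectin, stood at 221 and 650 CPM in the members, 832 and 1394 in the Dcn-high group and 2156 and 2531 in the alveolar gate. *Tcf21*, a transcription factor of lung lipofibroblasts, was at 547 and 423, 445 and 298, and 1369 and 1170 CPM, so the members held slightly more of it than the Dcn-high group in both libraries. *Itga8*, the integrin subunit that binds nephronectin, was at 223 and 339, 397 and 494, and 904 and 1148 CPM. At least 3 UMIs of these 3 genes together were present in 164 of 228 members (71.9%) and 70 of 75 (93.3%), and in 89.9% and 98.7% of Dcn-high cells. Whether these UMIs came from the cell itself or from free RNA of the abundant alveolar fibroblasts was not tested.

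The gate was thinly filled at its *Dcn* edge and well filled at its *Pi16* edge. Members with 2 to 4 *Dcn* UMIs numbered 9 and 6, and their *Serpinf1* level was 231 and 31.3 CPM. Just outside, 3 and 2 cells had *Pi16* with 1 *Dcn* UMI and no lineage UMI, with *Serpinf1* at 444 and 0 CPM, and 16 and 12 had *Pi16* without *Dcn*, with *Serpinf1* at 134 and 0 CPM. Of cells that met both the *Pi16* and the *Dcn* limit, 1 and 6 were left out for 1 lineage UMI and 2 and 8 for 2 or more. On the *Pi16* side, 45 of 228 and 20 of 75 members held 1 *Pi16* UMI, with *Serpinf1* at 345 and 79.0 CPM. The 373 and 447 cells with 2 to 4 *Dcn* UMIs and none of *Pi16* had *Serpinf1* at 25.5 and 23.2 CPM.

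Against the Dcn-high Pi16-negative fibroblasts, the closest group, the members held more *Ccl11*, *Entpd2*, *Cd248* and *Serpinf1* and less *Rgs2*, *S1pr3*, *Mmp3* and *Enpp2*. At an adjusted p under 0.05, 150 genes (1.25% of those tested) were higher and 130 (1.08%) lower, 2.32% in all, and the median log2 fold change over all genes was -0.02. *Ccl11*, the eosinophil chemoattractant eotaxin, was at 138 and 81.5 CPM in the members and 12.7 and 8.64 in the Dcn-high group, 9.94-fold higher (log2 fold change 3.31 ± 0.18 SE, adjusted p = 1.73e-05). Each edgeR SE is the absolute log2 fold change divided by the square root of the test's F value. It is not a spread measured between the libraries. *Entpd2*, an ectonucleotidase that degrades extracellular ATP, was at 145 and 94.1 against 16.6 and 10.2 CPM (3.13 ± 0.16, adjusted p = 1.21e-05). *Cd248*, endosialin of perivascular stroma, was at 86.6 and 49.1 against 5.21 and 3.58 CPM (3.88 ± 0.23, adjusted p = 3.14e-05). For each of these genes both libraries of the members stood above both of the Dcn-high group.

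The other genes with the largest increases belonged to several functions. *Serpinf1* was 5.98-fold higher (log2 fold change 2.58 ± 0.20, adjusted p = 0.000267) and *Adh7* 5.55-fold higher (2.47 ± 0.19, adjusted p = 0.000245). *Aqp1*, a water channel that lung capillaries also use, stood at 519 and 96.2 CPM against 82.1 and 8.89 (log2 fold change 2.90), while endothelial cells held 332 and 546. *Meg3*, an imprinted long non-coding RNA, was at 109 and 60.6 against 21.6 and 7.04 CPM (2.62), and *Alpl*, tissue-nonspecific alkaline phosphatase, at 104 and 120 against 22.8 and 19.7 (2.39). *Mmp23*, a membrane-bound metalloproteinase, was at 111 and 83.6 against 25.1 and 15.6 CPM (2.26), and *Apod*, a lipocalin, at 145 and 69.0 against 25.8 and 25.3 (2.04). The tetraspanin *Tspan11* was at 153 and 97.2 against 47.6 and 18.8 CPM (1.97). The adjusted p-values of *Aqp1*, *Meg3*, *Alpl*, *Mmp23*, *Apod* and *Tspan11* lay between 0.000356 and 0.00512.

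**Figure D2:**
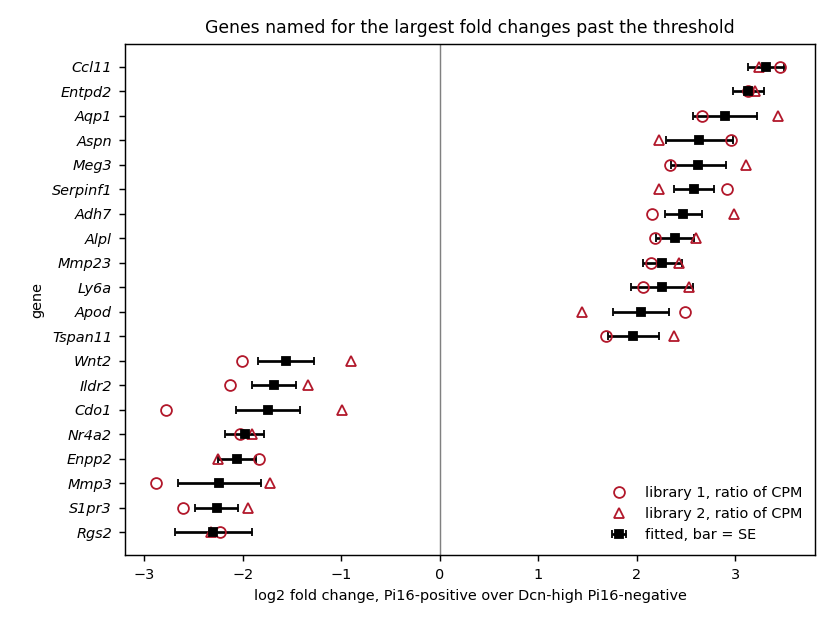
Log2 fold change of the members over Dcn-high Pi16-negative fibroblasts for the 12 genes with the largest increases and the 8 with the largest decreases past the threshold and at 50 CPM or more in the higher group. Squares are fitted values with an SE derived from the test's F value, and open circles and triangles are the ratios of CPM within libraries 1 and 2. Each gene lies on the same side of 0 in both libraries.

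The 8 largest decreases were spread over several functions. *Rgs2*, a brake on G protein signalling, was at 20.2 and 70.0 CPM in the members and 95.5 and 350 in the Dcn-high group (log2 fold change -2.30 ± 0.39, adjusted p = 0.0145). Its level in library 2 of the members lay below both Dcn-high values. *S1pr3*, a sphingosine-1-phosphate receptor, was at 12.6 and 30.3 against 76.4 and 117 CPM (-2.26). *Mmp3*, the matrix metalloproteinase stromelysin-1, was at 113 and 261 against 833 and 866 CPM (-2.24), and *Enpp2*, the lysophospholipase autotaxin, at 18.2 and 17.8 against 64.7 and 84.9 (-2.06). *Nr4a2*, an orphan nuclear receptor of the immediate response, was at 44.7 and 28.2 against 182 and 106 CPM (-1.98). *Cdo1*, cysteine dioxygenase, *Ildr2*, a membrane protein of the immunoglobulin superfamily, and *Wnt2* fell by 1.75, 1.68 and 1.56 on the log2 scale. *Wnt2*, a ligand of distal lung mesenchyme, was at 20.2 and 29.3 CPM in the members, 81.4 and 54.8 in the Dcn-high group and 370 and 178 in the alveolar gate, an order that held in both libraries. Against the alveolar gate, *Rgs2*, *S1pr3*, *Cdo1* and *Wnt2* were also lower in the members, *Mmp3*, *Nr4a2* and *Ildr2* were higher, and *Enpp2* had no call.

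These counts depended on which cells were compared. After the data had been seen, both groups were also compared without cells holding 3 or more UMIs of *Tcf21*, *Npnt* and *Itga8*, which left 64 and 5 members and 64 and 9 Dcn-high cells. With 4990 genes then tested, 8 were higher and 10 lower. *Ccl11*, *Serpinf1*, *Fbln5*, *Igfbp4*, *Cygb*, *Mmp3*, *Enpp2*, *Cdo1*, *Serpine2* and *Mt1* were past the threshold there in the same direction. Of the other genes named as called in this comparison, 62, *Gli1*, *Ptch1*, *Rbp4*, *Adh7* and *Ly6a* among them, kept their sign without a call, 5 changed sign, and the rest were not tested. Without the library as a block, 0 genes passed in edgeR and 538 had an unadjusted p under 0.05, while DESeq2 with the block called 124 higher and 104 lower. DESeq2 made no call for 16 of the 89 genes named as called, which were *Aqp1*, *Aspn*, *Meg3*, *Ly6a*, *Mmp3*, *Cdo1*, *Bmp7*, *Col18a1*, *Saa3*, *Rbp4*, *Bmp3*, *Id2*, *Smad7*, *Pappa2*, *Stc2* and *Peg3*, with the sign kept in each.

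Of 25 genes listed as marks of Pi16 fibroblasts in other organs, 17 were tested, and 7 lay below the filter on low counts. Among the 17 tested, 6 rose and 0 fell (median log2 fold change 1.63). *Dpp4*, *Efhd1*, *Smpd3* and *Cmah* had no UMI in the members. Over all genes tested, 1.25% were higher and 1.08% lower, the background for every list count against the Dcn-high group. Beside *Cd248*, the 6 higher genes were *Ly6a*, *Ly6c1*, *Adgrd1*, *Cd34* and *Bmp7*. *Ly6a*, the stem cell antigen Sca-1, was at 471 and 387 CPM against 113 and 67.1 (log2 fold change 2.26 ± 0.31, adjusted p = 0.00512). *Ly6c1*, its neighbour in the Ly6 family, was at 40.5 and 22.0 against 4.46 and 3.58 CPM (3.00 ± 0.44, adjusted p = 0.00695). *Adgrd1*, an adhesion G protein-coupled receptor, was at 35.6 and 53.3 against 7.94 and 9.01 CPM (2.39), and *Cd34*, a sialomucin of stromal and vascular cells, at 373 and 326 against 121 and 103 (1.63 ± 0.20, adjusted p = 0.00307). *Bmp7* reached 59.3 and 12.5 against 22.8 and 4.32 CPM (1.46, adjusted p = 0.040), with the member value of library 2 below the Dcn-high value of library 1. *Ly6a* and *Cd34* are also endothelial genes, and *Ly6a* stood at 1360 and 1995 CPM in endothelial cells. The endothelial marker list as a whole summed to 117 and 79.5 CPM in the members and 81.6 and 67.1 in the Dcn-high group, with *Tie1*, *Cdh5* and *Pecam1* at 0 in the members, *Cdh5* and *Pecam1* by the rule.

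*Dpp4*, the peptidase by which Pi16 cells are often sorted in skin and fat, had no UMI in 228 and 75 members, which allows a level of at most 2.09 and 3.14 CPM at 3 UMIs per library. Its transcript was readily read elsewhere in the same libraries, in 205 of 371 (55.3%) and 74 of 114 (64.9%) epithelial cells, at median depths of 10480 and 16379.5 UMIs. The other fibroblasts held almost none either, with a UMI in 3 of 633 and 1 of 695 Dcn-high cells. In the alveolar gate it was 6 of 2273 and 6 of 1245 cells, so the absence does not set the members apart from these groups. Other universal markers did not pass the test. *Dpt*, dermatopontin, was at 381 and 608 CPM in the members and 530 and 717 in the Dcn-high group, and the guidance ligand *Sema3c* at 12.6 and 10.5 against 14.4 and 20.6. *Igfbp5* was at 41.2 and 25.1 CPM in the members against 59.0 and 92.8.

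Genes of the elastic fibre and its microfibrils rose in 4 of the 20 tested, with 0 lower and a median log2 fold change of 0.38. *Fbln2*, fibulin-2 of vessel walls, was at 187 and 156 CPM against 61.5 and 64.8 (log2 fold change 1.42 ± 0.18, adjusted p = 0.00320). *Fbln5*, which tethers elastin to cells, was at 220 and 244 against 119 and 83.8 CPM (1.18), *Fbln1* at 828 and 657 against 551 and 467 (0.51), and *Ltbp4*, a latent TGF-beta binding protein needed for elastin assembly, at 1717 and 1551 against 1174 and 927 (0.62). All 4 fibre genes had both member values above both Dcn-high values.

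Collagens and proteoglycans shifted in a few members only. Of 18 collagens tested, *Col14a1*, a fibril-associated collagen, was at 578 and 424 CPM against 212 and 215 (log2 fold change 1.18 ± 0.13, adjusted p = 0.00192), *Col18a1* of basement membranes was at 96.3 and 89.9 against 62.8 and 53.6 (0.66), and *Col12a1* at 7.68 and 15.7 against 24.6 and 41.8 (-1.58). The fibrillar collagens did not pass the test. *Col1a1* stood at 1599 and 1672 CPM in the members and 1217 and 1465 in the Dcn-high group, and *Col3a1* at 1498 and 1959 against 1772 and 2476. Of 11 proteoglycans tested, *Aspn*, *Fmod* and *Vcan* rose and 0 fell. *Aspn*, asporin, was at 141 and 82.6 CPM against 18.1 and 17.7 (2.63), *Fmod*, fibromodulin, which regulates collagen fibril width, at 83.1 and 55.4 against 25.3 and 13.5 (1.85), and *Vcan*, versican, at 89.4 and 95.1 against 38.7 and 56.4 (0.96).

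Proteases and their inhibitors moved both ways, with 2 higher, 3 lower and 20 not called of 25. Beside *Mmp23* and *Serpinf1*, which were higher, and *Mmp3*, which was lower, *Serpine2* (protease nexin-1) fell to 67.7 and 167 CPM from 191 and 268 (log2 fold change -1.06, adjusted p = 0.0488).

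Hedgehog genes rose in 3 of the 11 tested, with 0 lower and a median log2 fold change of 0.42. In this pathway ligands from epithelium bind Ptch1, which frees Smo to activate the Gli factors, and *Gli1*, *Ptch1* and *Hhip* are themselves transcribed in response. *Gli1* was at 41.2 and 42.9 CPM in the members, 14.1 and 15.3 in the Dcn-high group and 1.07 and 1.003 in the alveolar gate (log2 fold change over Dcn-high 1.48 ± 0.20, adjusted p = 0.00512). The receptor *Ptch1* stood at 464 and 231, 175 and 90.2, and 70.3 and 58.5 CPM (1.37 ± 0.19, adjusted p = 0.00484). *Hhip*, the decoy that binds the ligands, stood at 133 and 123, 50.6 and 59.0, and 8.403 and 11.9 CPM (1.22 ± 0.16, adjusted p = 0.00411). All 3 targets thus fell in the same order of groups in both libraries, members first and alveolar gate last. *Hhip* turned to a log2 fold change of -1.04 without the cells that held alveolar UMIs. The components that are not themselves targets had no call: *Smo* was at 50.3 and 41.8 CPM against 36.0 and 49.4, the coreceptor *Boc* at 125 and 115 against 98.2 and 141, and *Gas1* at 247 and 248 against 305 and 335.

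IGF genes, whose binding proteins hold insulin-like growth factors in the matrix, were higher in 3 and lower in 1 of 15, with a median log2 fold change of 0.51. *Igfbp4* was at 1648 and 1308 CPM in the members, 704 and 443 in the Dcn-high group and 18.1 and 13.8 in the alveolar gate (log2 fold change over Dcn-high 1.36 ± 0.12, adjusted p = 0.000553). *Igfbp6*, which prefers IGF-II, was at 3951 and 2615, 2168 and 1487, and 393 and 334 CPM (0.81, adjusted p = 0.0127). *Stc2*, stanniocalcin-2, an inhibitor of pappalysins, was at 10.5 and 17.8 against 3.97 and 4.81 CPM (1.65). The pappalysin *Pappa2*, a protease that cleaves IGF binding proteins, was lower, with 1 and 7 UMIs in the members and 23 and 287 in the Dcn-high group (adjusted p = 0.0127).

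**Figure D3:**
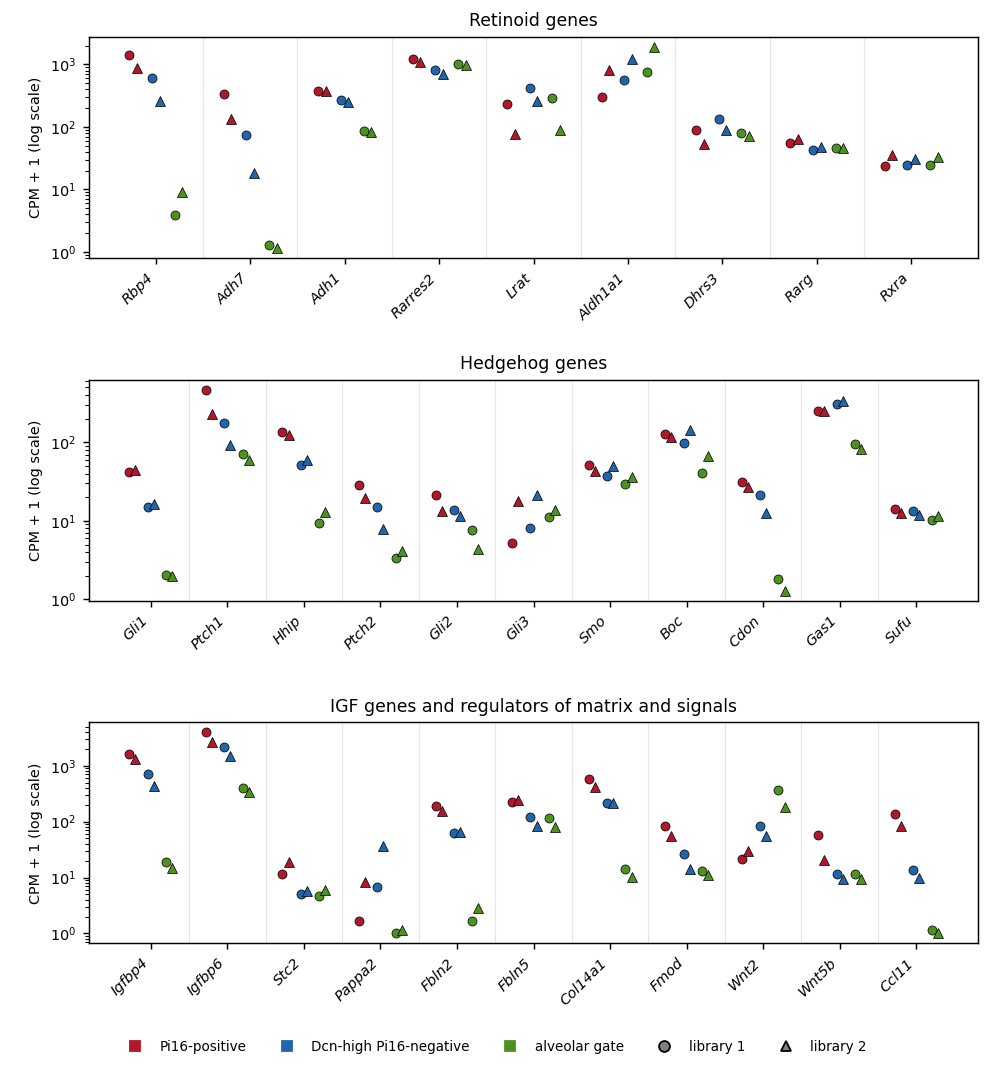
Levels of retinoid genes, hedgehog genes, and IGF, matrix and signal genes. The vertical axes are CPM + 1 on a log scale, colour gives the group, and circles and triangles are libraries 1 and 2. *Rbp4* and *Adh7* are highest in the members and lowest in the alveolar gate, *Lrat* is highest in the Dcn-high group, and *Gli1*, *Ptch1*, *Hhip* and *Igfbp4* fall from the members to the alveolar gate in both libraries.

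Wnt genes gave 3 higher and 1 lower of 21. Beside the fall of *Wnt2*, *Wnt5b*, a non-canonical ligand, was at 56.5 and 19.9 CPM against 10.7 and 8.39 (log2 fold change 1.96), the receptor *Fzd2* at 162 and 98.3 against 53.6 and 52.7 (1.24), and *Notum*, a secreted enzyme that inactivates Wnt ligands, at 55.2 and 8.36 against 13.6 and 4.94 (1.76). *Notum* rested on 79 and 8 UMIs in the members, and its log2 ratio was 0.76 in library 2 alone. Of 33 BMP and TGF-beta genes, *Tgfbr2*, *Bmp4* and *Bmp7* were higher, and *Thbs1*, *Bmp3*, *Bmp5*, *Id2* and *Smad7* were lower. The receptor *Tgfbr2* was at 467 and 746 CPM against 338 and 446 (0.58), and *Thbs1*, thrombospondin-1, an activator of latent TGF-beta, at 477 and 630 against 1430 and 1398 (-1.41 ± 0.15, adjusted p = 0.00157). *Bmp4* was at 254 and 188 against 154 and 139 CPM (0.56), while *Bmp3* was at 76.8 and 85.7 against 148 and 113 (-0.71) and *Bmp5* at 89.4 and 139 against 134 and 246 (-0.75). The feedback genes *Id2* and *Smad7*, which BMP and TGF-beta signals induce, had log2 fold changes of -1.44 and -0.61, and *Smad7* was at 0.40 without cells holding alveolar UMIs. Of 29 FGF and PDGF genes and guidance cues, 0 rose and 2 fell, the receptor *Fgfr4* (-1.55, and 0.88 without cells holding alveolar UMIs) and the guidance ligand *Slit2* (-0.91).

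Retinoid genes are of interest because the sort selected for retinoid light. Of 20 tested, 4 were higher, 2 lower and 14 not called, with a median log2 fold change of -0.01. *Rbp4*, the carrier of retinol in plasma, was at 1442 and 875 CPM in the members, 610 and 257 in the Dcn-high group and 2.93 and 8.03 in the alveolar gate (log2 fold change over Dcn-high 1.45 ± 0.31, adjusted p = 0.0414). It had a UMI in 92.5% and 90.7% of members and 50.2% and 48.6% of Dcn-high cells, against 1.71% and 2.90% of endothelial, 5.32% and 5.91% of immune and 28.3% and 36.8% of epithelial cells, the deepest of these groups. Thinned to 2000 UMIs, the member shares were 78.6% and 66.7%, the Dcn-high shares 36.7% and 24.6% and the epithelial shares 7.01% and 4.39%. *Adh7* joined it, as did *Adh1*, a class I alcohol dehydrogenase, at 381 and 381 CPM against 268 and 249 (0.53, adjusted p = 0.0349) and *Rarres2*, the chemerin gene known as responsive to retinoids, at 1228 and 1085 against 821 and 694 (0.58).

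The enzyme that esterifies retinol for storage moved the other way. *Lrat* was at 230 and 75.3 CPM in the members, 412 and 256 in the Dcn-high group and 292 and 90.0 in the alveolar gate. It fell against the Dcn-high group (log2 fold change -1.30 ± 0.21, adjusted p = 0.0128) and gave no call against the alveolar gate (-0.19, adjusted p = 0.574). *Aldh1a1*, which oxidizes retinaldehyde to retinoic acid, was at 299.5 and 818, 557 and 1202, and 756 and 1878 CPM (-0.75 over Dcn-high, adjusted p = 0.0128). Without cells holding alveolar UMIs, its log2 fold change over Dcn-high was 0.34. The retinaldehyde reductase *Dhrs3* was at 89.4 and 53.3 CPM against 131 and 86.9, without a call. *Cyp26b1*, which degrades retinoic acid, had no UMI in the members, which allows at most 2.09 and 3.14 CPM at 3 UMIs per library. It had 38 and 22 UMIs in the larger Dcn-high group and was not among the 2 retinoid genes called lower. *Stra6*, *Ttr*, *Cyp26a1* and *Cyp26c1* had no UMI in any of the 3 groups.

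Lipid genes, the other hallmark of lipofibroblasts, showed 2 higher, 1 lower and 27 not called of 30. *Pltp*, phospholipid transfer protein, was at 457 and 300.1 CPM against 231 and 126 (log2 fold change 1.08 ± 0.12, adjusted p = 0.00192), and *Mgll*, monoacylglycerol lipase, at 90.8 and 76.3 against 43.7 and 14.8 (1.59). The carboxylesterase *Ces1d*, which hydrolyses stored esters, was at 46.1 and 93.0 CPM in the members, 130 and 199 in the Dcn-high group and 665 and 634 in the alveolar gate (-1.31 over Dcn-high, adjusted p = 0.0109). It was also on the list of alveolar fibroblast genes, of which 0 rose and 6 fell among 22. These were *Lrat*, *Ces1d*, *Wnt2*, *Fgfr4*, the methyltransferase *Inmt*, at 3144 and 3923 against 6064 and 4942 CPM (-0.67), and the amino acid transporter *Slc38a5*, at 82.4 and 108 against 179 and 165 (-0.90). All but *Slc38a5* were also counted in another list. *Lrat* was highest in the Dcn-high group and not in the alveolar gate, so its fall is not that of a gene highest in alveolar cells here.

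Chemokines and cytokines were higher in 3 and lower in 3 of 20. Beside *Ccl11*, the monocyte chemoattractant *Ccl8* had 13 and 19 UMIs in the members against 8 and 9 in the larger Dcn-high group (log2 fold change 3.25 ± 0.60, adjusted p = 0.0207). The alarmin *Il33*, which activates type 2 innate lymphoid cells, was at 42.6 and 28.2 CPM against 11.2 and 13.2 (1.53, adjusted p = 0.0168). *Cxcl2*, a neutrophil chemoattractant, had 3 and 0 UMIs in the members and 85 and 125 in the Dcn-high group, and stood at 1036 and 552 CPM in immune cells. The B cell factor *Tnfsf13b* was at 120 and 157 against 202 and 233 CPM (-0.69), and the acute-phase gene *Saa3* had 0 and 18 UMIs against 15 and 407. The macrophage genes *C1qa* and *C1qb* fell with them, from 21.3 and 12.7 and from 21.8 and 9.63 CPM in the Dcn-high group to 2 and 1 UMIs in library 1 of the members and 0 in library 2. The 12 immune markers summed to 52.4 and 19.9 CPM in the members and 209 and 80.2 in the Dcn-high group, with *Ptprc* at 0 by the rule and *Cd79a* and *Cd3d* at 0 in the members. The part of immune RNA in the lower chemokine levels was not tested.

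Complement genes, made by fibroblasts as well as liver, gave 2 higher and 2 lower of 13. *Cfb*, factor B of the alternative pathway, was at 127 and 133 CPM against 67.5 and 60.2 (log2 fold change 0.99, adjusted p = 0.00854), and the classical pathway protease *C1ra* at 447 and 331 against 325 and 208 (0.53). *C2*, the paralogue that serves the classical pathway, was at 39.8 and 78.4 against 141 and 127 CPM (-1.27), and *C7* of the membrane attack complex at 205 and 409 against 417 and 598 (-0.80, and 0.21 without cells holding alveolar UMIs). Of 23 redox and xenobiotic genes, *Cygb*, the stromal globin cytoglobin, was higher at 734 and 738 against 370 and 431 CPM (0.86). The metallothioneins *Mt1* and *Mt2*, which bind zinc and copper, were lower with log2 fold changes of -1.28 and -1.50, *Mt1* at 2042 and 1982 against 4638 and 5029 CPM and *Mt2* at 177 and 371 against 471 and 1057. *Prdx6*, a peroxiredoxin, fell by 0.57 on the log2 scale, and *Inmt* completed the 4 lower genes.

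Among 51 transcription factors tested, 7 were higher and 4 lower, beside 1.25% and 1.08% of all genes tested. *Osr1*, a zinc finger factor of connective tissue progenitors, was at 164 and 203 CPM against 102 and 110 (log2 fold change 0.75), and its paralogue *Osr2* at 25.8 and 8.36 against 5.46 and 2.84 (1.96). *Prrx1*, a homeobox factor of mesenchyme, was at 99.8 and 127 against 58.3 and 64.1 CPM (0.85, adjusted p = 0.0140), *Aebp1* at 588 and 473 against 305 and 327 (0.72) and the imprinted *Peg3* at 39.8 and 39.7 against 20.6 and 20.2 (0.96). *Ebf1* and *Twist2* rested on few UMIs, 6 and 13 for *Ebf1* and 40 and 1 for *Twist2* in the members, against 2 and 8, and 9 and 3, in the Dcn-high group. *Hoxa5*, a factor of lung patterning, was at 50.3 and 93.0 against 148 and 151 CPM (-1.14, adjusted p = 0.0128), and *Etv1*, an ETS factor downstream of FGF signals, at 25.1 and 27.2 against 49.6 and 62.2 (-1.10). *Nr4a1* was at 602 and 201 against 851 and 434 CPM (-0.81) and fell with *Nr4a2*.

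Against the alveolar-gate fibroblasts the members held more *Serpinf1*, *Entpd2*, *Rbp4* and fibulin and IGF binding protein transcripts, and less of the alveolar genes and of surfactant transcripts. Of the 12047 genes, 1574 (13.1%) were higher and 1127 (9.36%) lower, 22.4% in all, with a median log2 fold change of -0.03. This comparison shares the member sums with the previous one, and the alveolar gate was shallower, at 3307 and 5550 UMIs per cell in the median. Thinned to 2000 UMIs per cell, 965 genes were higher and 715 lower. *Serpinf1* was higher by a log2 fold change of 8.60 ± 0.32 and *Rbp4* by 7.74 ± 0.45. The alveolar gate held 6 and 8 UMIs of *Serpinf1* and 22 and 56 of *Rbp4*. The log2 ratios within libraries 1 and 2 lay further apart than the SE, at 9.45 and 7.37 for *Serpinf1* and 8.94 and 6.77 for *Rbp4*. The matrix protein *Fbln2* was higher by 7.15, *Aqp1* by 7.41, and *Fndc1*, a fibronectin type III protein, by 7.10. In the alveolar gate they had 5 and 13, 13 and 14, and 9 and 10 UMIs in the same order. Their log2 ratios in libraries 1 and 2 were 8.13 and 6.39, 8.23 and 5.58, and 7.06 and 7.06. *Fndc1* stood at 161 and 191 CPM in the members and 1.20 and 1.43 in the alveolar gate. These 5 genes were called at adjusted p-values of 2.32e-06 or lower. *Col15a1*, a basement membrane collagen, was at 128 and 87.8 CPM in the members and 52.3 and 55.3 in the Dcn-high group, which it did not separate (adjusted p = 0.0611). *Entpd2*, *Col15a1*, *Ccl11*, *Adh7*, *Meg3*, *Adam23* and *Olfml2b* were among the 12 largest increases too, but had 3 or fewer UMIs in at least 1 library of the alveolar gate, so no fold is given. *Ccl11* had 198 and 78 UMIs in the members and 1 and 0 in the alveolar gate.

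By gene group the counts against the alveolar gate were as follows, beside 13.1% higher and 9.36% lower over all genes tested. Of the 17 universal fibroblast genes tested, 16 were higher, of the 20 elastic fibre genes 16 were higher and 2 lower, and of the 11 hedgehog genes 9 were higher and 0 lower. IGF genes gave 11 higher and 1 lower of 15, complement 9 and 2 of 13, and chemokines 15 and 0 of 20. Lipid genes gave 3 higher and 15 lower of 30, and the alveolar fibroblast list 0 and 18 of 22. Of retinoid genes, 5 were higher and 2 lower of 20, with *Adh1* higher by 2.27 and *Aldh1a1* lower at -1.20. *Wnt2* had a log2 fold change of -3.42, *Fgfr4* -4.16 and *Ces1d* -3.23. The alveolar gate leaves out any cell with a *Dcn*, *Pi16* or *Mfap5* UMI and asks for alveolar UMIs. *Mfap5* had a UMI in 57.4% and 71.9% of all kept cells in libraries 1 and 2. Genes that vary with the gate genes are therefore pushed in these directions by the rule itself. The part of this selection in the list counts was not tested.

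Several of the largest decreases against the alveolar gate were transcripts of type 2 epithelial cells. *Sftpc*, the surfactant protein C gene, was at 224 and 48.1 CPM in the members, 339 and 97.6 in the Dcn-high group, 4056 and 2795 in the alveolar gate and 231048 and 138978 in epithelial cells. *Sftpa1* and *Lyz2* had log2 fold changes of -4.59 and -4.61. *Wfdc2* had 6 UMIs in library 1 of the members and 0 in library 2, and *Slc34a2* and *Sftpd* had 1 and 0, so no fold is given for them. The 10 epithelial markers summed to 434 and 129 CPM in the members, 450 and 153 in the Dcn-high group and 4746 and 3489 in the alveolar gate, with *Epcam* at 0 in all 3 by the rule. The part of epithelial RNA in these decreases was not tested. Beyond them, the amino acid transporter *Slc7a10*, at 9.08 and 12.5 against 325 and 170 CPM (-4.49), and the sulfotransferase *Chst3*, with 3 and 7 UMIs in the members against 81.1 and 107 CPM, were lower.

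Markers of the other stromal cell types were in part absent from the members and in part present. *Myh11* of smooth muscle, *Rgs5*, *Notch3* and *Higd1b* of pericytes, *Msln*, *Upk3b* and *Wt1* of mesothelium, *Sox10* of Schwann cells and *Col2a1* of cartilage had no UMI in either library. The 10 mesothelial markers summed to 5.59 and 25.1 CPM in the members, against 48.4 and 51.1 in the Dcn-high group, and the 8 Schwann markers to 2.79 and 7.32 against 5.46 and 8.39. Other lists summed higher in the members than in the Dcn-high group in both libraries, the 9 smooth muscle markers at 263 and 461 CPM against 190 and 177, the 10 myofibroblast markers at 457 and 359 against 192 and 229, and the 10 pericyte markers at 270.2 and 272 against 150 and 139. In the alveolar gate the smooth muscle sum was higher than in the members, at 798 and 1123 CPM. Its myofibroblast sum was lower, at 41.7 and 90.6, as was its pericyte sum, at 24.7 and 46.3. *Kcnj8*, a potassium channel subunit listed for pericytes, was at 167 and 196 CPM and made up most of that list's sum. Of the 10 myofibroblast markers, *Aspn* and *Hhip* were called against the Dcn-high group and *Lgr6* had no UMI. The contractile gene *Acta2* was at 127 and 276 CPM in the members and 77.9 and 71.1 in the Dcn-high group, without a call. The part of smooth muscle or pericyte RNA in the differences above was not tested.

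Within the members, cells with 8 or more *Pi16* UMIs held more *Ly6a*, *Cd248*, *Serpinf1*, *Adh7* and *Cd34* than cells with 1 in both libraries, with few cells in each class. *Col14a1*, *Clec3b*, *Igfbp6*, *Tcf21* and *Lrat* were higher in that class too, while *Rbp4* was not in library 1. In library 1 the classes with 1, 2, 3 to 7, and 8 or more *Pi16* UMIs held 45, 29, 91 and 63 cells, and in library 2 they held 20, 9, 19 and 27. *Ly6a* was at 331, 325, 481 and 612 CPM along these classes in library 1 and at 195, 417, 407 and 494 in library 2, highest in the last class but not rising at each step. *Cd248* was at 73.1, 46.4, 83.5 and 116 CPM in library 1 and at 37.4, 55.6, 35.2 and 65.3 in library 2, highest in the last class but with no steady order before it. *Serpinf1* rose at each step in library 1, at 345, 394, 572 and 761 CPM. In library 2 it was at 79.0, 352, 160.3 and 238, higher in the last class than in the first but with no steady order between. *Rbp4* was at 1375, 1670, 1503 and 1314 CPM in library 1 and at 437, 918, 1306 and 849 in library 2, lowest in the last class of the one and in the first class of the other. Even the class with 1 *Pi16* UMI stood above the Dcn-high group for *Serpinf1*, *Adh7*, *Rbp4*, *Cd34*, *Ly6a* and *Cd248* in both libraries. *Pi16* chose these cells, so the classes are a description.

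**Figure D4:**
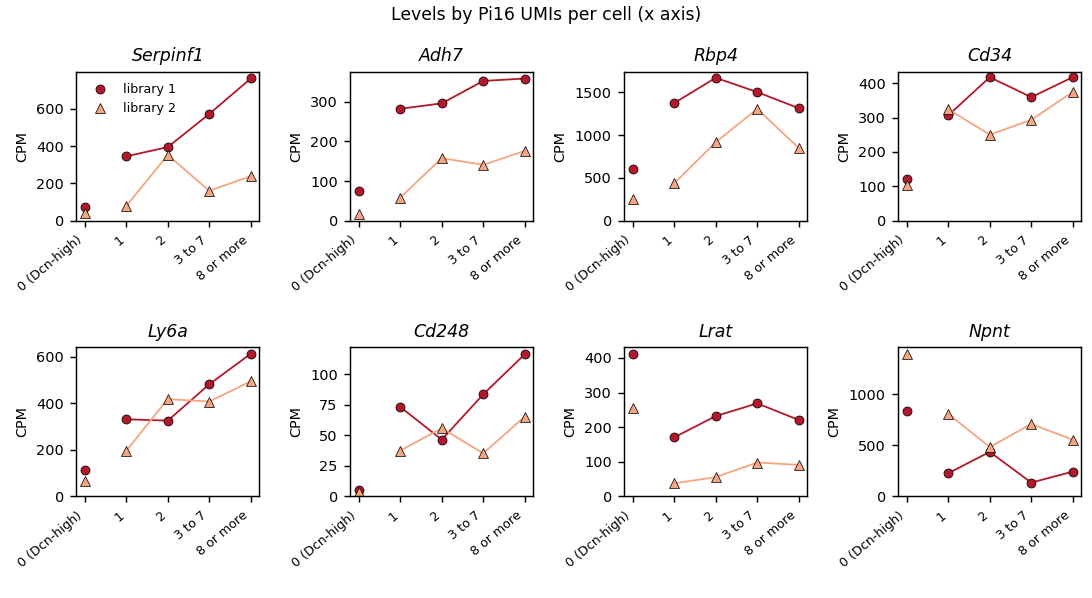
Levels in members split by *Pi16* UMIs per cell. Each panel is a gene, the horizontal axis gives the *Pi16* UMIs of the cells (0 is the Dcn-high group), the vertical axis is CPM from 0, and circles and triangles are libraries 1 and 2. The lowest class of members is already above the Dcn-high group for *Serpinf1*, *Adh7*, *Rbp4*, *Cd34*, *Ly6a* and *Cd248*, and below it for *Lrat* and *Npnt*.

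From cell to cell in the members, abundant matrix, nuclear and stress transcripts ranked first by the ratio of variance to mean. This ratio rises with the mean at equal relative spread, so the ranking does not show which genes varied most for their level. In cells thinned to 2000 UMIs, the ratio of variance to mean was highest, by the lower of both libraries, for *Malat1* (10.6 and 15.9), *Mgp* (8.84 and 10.1), *Gm42418* (8.70 and 17.9), *Gsn* (6.54 and 5.63) and *Mt1* (20.0 and 5.54), followed by *Fth1*, *Dcn*, *Ifi27l2a*, *Fos* and *Junb*. The median over 1302 genes was 1.07 and 1.05, near the value of counting noise. *Mgp*, matrix Gla protein, an inhibitor of calcification, averaged 34.2 and 39.1 UMIs per thinned cell. Ranked over 224 and 75 thinned cells, *Pi16* and *Dcn* had a Spearman correlation of 0.28 and 0.34, *Ly6a* and the plasminogen-binding lectin gene *Clec3b* of 0.30 and 0.34, and *Pi16* and *Adh7* of 0.01 and 0.09. These are descriptions over cells that share a library, an equal depth and, for *Pi16* and *Dcn*, the selection.

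Between the libraries the members differed in clock and glucocorticoid response genes among others, and the other groups moved with them. Of 3023 genes at 50 CPM or more, those higher in library 2 by the largest ratio were *Zbtb16* (3.49 and 216 CPM in libraries 1 and 2), *Dbp* (11.2 and 186), *Fkbp5* (11.9 and 169), *Rapgef5* (13.3 and 184) and *Angptl4* (29.3 and 361). *Dbp*, a clock output factor, was at 9.92 and 210.2 CPM in the Dcn-high group. Those lower in library 2 were *Gstp1* (239 and 10.5), *Gm10076* (769 and 82.6), *Cxcl1* (131 and 14.6), *Il6* (286 and 32.4) and *Has1* (173 and 19.9). *Il6* was at 188 and 30.7 CPM in the Dcn-high group. The time of day, the handling and the mice of each library are not given in the sources used here and cannot be told apart.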

How the data were processed

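Per the labels and the study's methods, UV-positive cells of 3-month-old mice were captured with the 10x Genomics 3′ chemistry, and the authors deposited filtered matrices of raw UMI counts per gene and barcode. The submitters' processing notes name Cell Ranger 5.0.1 and mm10. The deposited counts were used without normalization, summed per library and group. No doublet caller was run, and doublets were limited by excluding lineage UMIs and, as an alternative, the 5% deepest cells.

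Sums were compared with edgeR 4.0.16 in R 4.3.3 (TMM, filterByExpr, quasi-likelihood, two-sided, library as a block because each library gives every group), tested on simulated data, with DESeq2 1.42.0 as an alternative. Named were listed genes and, per comparison, the 12 largest increases and 8 largest decreases past the threshold. These had 1 sign in both libraries and at least 50 CPM in the higher group. The 10 genes with the highest ratio of variance to mean and the 5 largest library ratios each way were named too. Further genes of the lists were named after their values were seen, and a few members that the list counts include are not reported here by name. Members and lists were chosen with earlier results of these data known. Endothelial, epithelial and immune cells held at least 3 UMIs of their own lineage gene or genes and none of the others. Of 32285 gene identifiers, 32235 matched GENCODE M21, whose positions were used. Alternatives covered filters, scaling, tool, block, gates, depth and doublets.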

Additional observations from a re-analysis of the deposited data

How the results depend on the processing

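The number of genes that differed from the Dcn-high group depended on the fit. Without the replicate block 0 genes were higher and 0 lower, because the pairing of groups within a library was dropped, and against the alveolar gate 454 were higher and 155 lower. Without the filter on low counts 299 were higher and 428 lower than in the Dcn-high group, and with only the groups compared in the fit 290 and 269. Against the alveolar gate DESeq2 called 661 lower, and thinning each cell to 2000 UMIs left 965 higher and 715 lower of the 9509 genes tested. In the alternative added after the data were seen, without cells holding 3 or more alveolar UMIs, 8 were higher and 10 lower against the Dcn-high group and 372 and 292 against the alveolar gate, with fewer cells and genes tested. There, of the genes named against the Dcn-high group, *C7* (0.21), *Aldh1a1* (0.34), *Fgfr4* (0.88), *Smad7* (0.40) and *Hhip* (-1.04) changed the sign of their log2 fold change, and the cause was not tested. Of the 89 genes named as called against the Dcn-high group, 62 kept their sign but lost their call there, all 89 lost it without the block, 16 with DESeq2, 12 after thinning and at most 5 under any other fit of both libraries, while of the 43 named against the alveolar gate 4 lost it without the block and at most 1 otherwise. Under the other alternatives the named genes kept their sign, and the counts in each direction stayed within 1.5 times. The share of members ranged from 0.751% to 2.37% when either library was left out.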
